A study of Mus musculus with 8 samples.

Results

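The enzymes that break down glucose and that store and release glycogen were followed in brown adipose tissue (BAT) as 45 genes, out of 33641 genes listed in the deposited files. The genes were taken by symbol, as the enzymes and isozymes of these pathways. They form 6 lists by role, with 21 genes of glycolysis, 2 of lactate dehydrogenase, 8 of glycogen breakdown, 6 of glycogen synthesis, 1 gluconeogenic bisphosphatase and 7 of the pyruvate dehydrogenase complex and its kinases. All 45 passed the filter on low counts.

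Glycolysis converts glucose to pyruvate in the cytosol, and pyruvate is then reduced to lactate or enters the mitochondrion, where pyruvate dehydrogenase turns it into acetyl-CoA. Glycogen is a branched store of glucose that glycogen synthase builds and glycogen phosphorylase takes apart, and phosphorylase kinase switches phosphorylase on in response to calcium and adrenergic signals. Brown adipocytes take up much glucose when they produce heat, and several steps are run by isozymes from separate genes, of which skeletal muscle favours *Pfkm*, *Pgam2*, *Eno3* and *Pygm*.

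Poly(A) libraries were made from interscapular BAT of 8 C57BL/6 mice aged 28 weeks. By their labels, 3 libraries were wild-type controls (A7, A8 and A12) and 5 were *Adipo-HuR-/-* (A24, A25, A26, A29, A31), with HuR, the RNA-binding protein encoded by *Elavl1*, deleted by a Cre recombinase under the adiponectin promoter in floxed animals. Other cells of the tissue keep HuR in this model. The study's methods name littermates of the genotypes *wt/wt-cre+*, *flox/flox-cre-* and *wt/flox-cre-* as controls, each of which carries Cre or a floxed allele. The published legend gives the group sizes the other way round from the labels, and the groups here follow the labels. Total estimated counts lay between 17558090 in A25 and 67498055 in A26, with 18264754 in A24 and between 50673814 and 60622522 in the other 5 libraries. Levels are given as CPM (counts scaled to library size with TMM factors), which compare 1 gene between libraries, or as TPM, which also divide by transcript length and compare genes within a library. Where 3 and 5 values follow each other, they stand in the order of the libraries given above, the controls first and then the others, that is those labelled *Adipo-HuR-/-*.

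*Elavl1* was read first as a check of the labels. It stood at 50.6, 48.0 and 49.2 CPM in the controls, and at 61.9, 47.3, 43.4, 61.3 and 61.2 CPM in the others. The 2 groups of libraries overlapped, and the mean was not lower in the others (log2 fold change 0.16 ± 0.162 (SE), edgeR adjusted p = 0.667). With total counts the log2 fold change was 0.38 (edgeR unadjusted p = 0.0746), and for the most abundant transcript 0.46 (edgeR unadjusted p = 0.0269). Total *Elavl1* therefore gives no check of the labels, on which all directions rest.

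Of the 45 genes, 34 had a lower and 11 a higher level under the label *Adipo-HuR-/-*, with a median log2 fold change of -0.24 beside 0.00 over all 14851 genes tested. Only *Phkb*, the β subunit of phosphorylase kinase, passed the threshold of an adjusted p of at most 0.05 and a fold change of at least 1.5 (edgeR's quasi-likelihood test, Benjamini-Hochberg adjustment over all genes tested), which 105 genes (0.707%) passed. At an unadjusted p under 0.05, 11 of the 45 were lower and 0 were higher, beside 9.41% and 7.64% of all genes tested. With total counts in place of TMM these counts were 6 lower and 3 higher, the latter being *Aldoc*, *Pdk2* and *Pgam1*, beside 2992 of 14851 genes in either direction. Without A7, A8 and A31, which had high contractile genes, the median of the 45 was 0.05 and that of all genes 0.05, with 3 of the 45 lower and 1 higher at an unadjusted p under 0.05, beside 2081 of 15641 genes in either direction. With the contractile score as covariate the medians were -0.04 and 0.02, with 6 lower and 0 higher, beside 1744 of 14851 genes. The lower median of the 45 was thus not kept without these libraries. Control and *Adipo-HuR-/-* libraries did not overlap for 7 of the 45, all of them lower in the second group, where 6.09% of all genes were lower and 5.37% higher without overlap. DESeq2's Wald test called 8 of the 45 and 5.51% of all genes, and edgeR's likelihood ratio test called 6 of the 45 and 4.41% of all genes, all of them lower. Scaling by total counts alone moved the median over all genes tested from 0.00 to 0.23 and that of the 45 genes to 0.00, so that directions are read against TMM. Overlap of CPM was also read with TMM factors only, which ran from 0.763 in A8 to 1.201 in A25, and it depends on them. With total counts, log2 fold changes were -0.78 for *Phka1*, -0.45 for *Phka2*, -0.45 for *Ugp2*, -0.36 for *Dlat* and -0.42 for *Pdk1*. Their edgeR unadjusted p were 0.00748, 0.113, 0.0294, 0.115 and 0.0802. For genes named with full values, reversals with total counts, with the covariate or without A7, A8 and A31 are given with their description. Their reversals with other libraries left out are given in the last section. Reversals of the other members are not given. *Hk2*, for example, was lower with all libraries and higher without A7, A8 and A31. A positive log2 fold change stands for a higher level under the label *Adipo-HuR-/-* throughout.

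**Figure D1:**
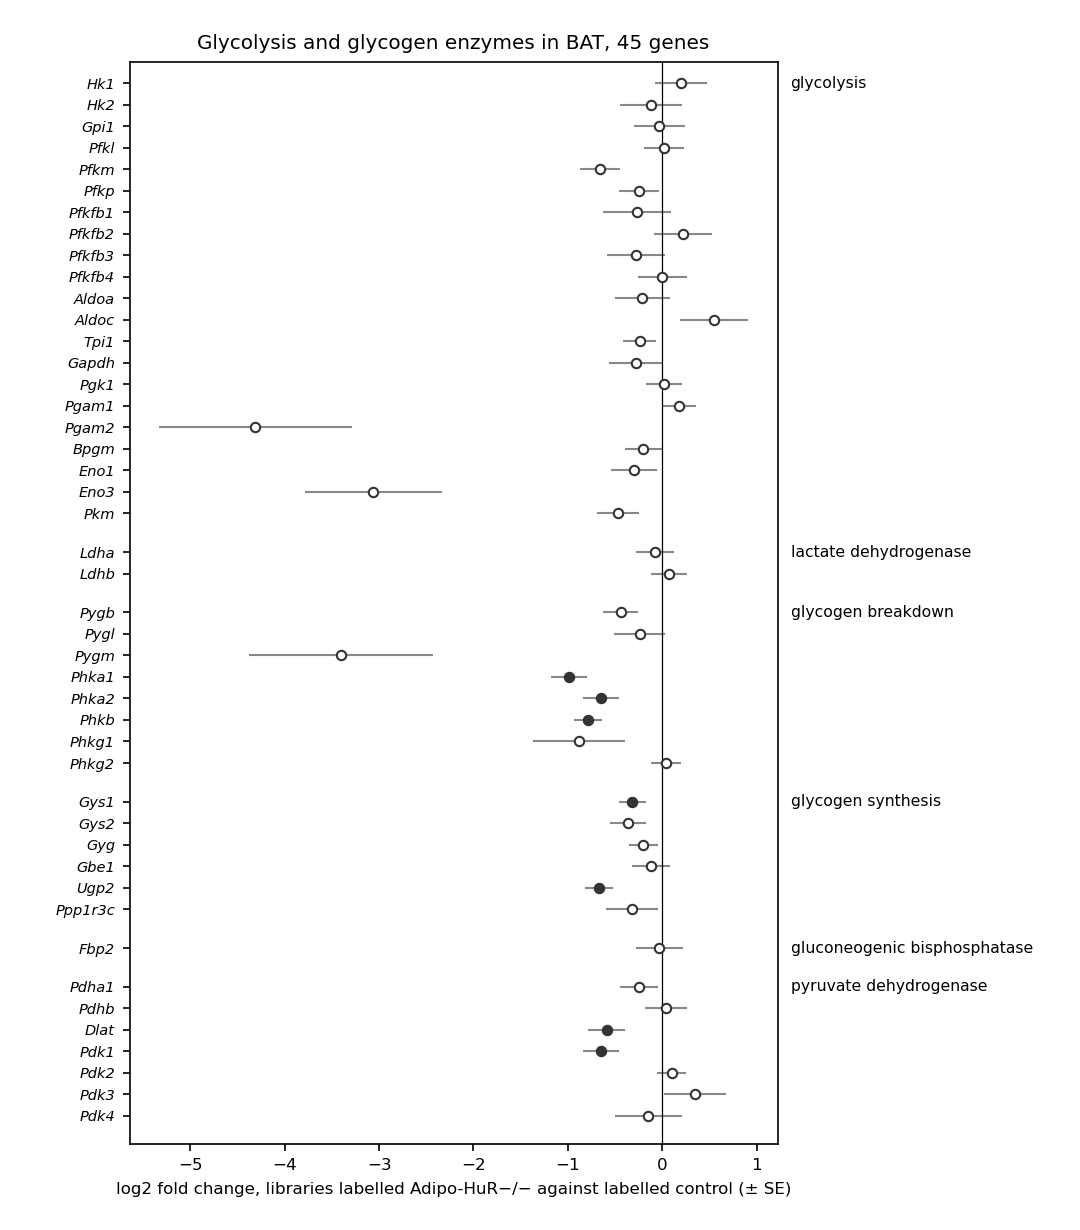
Log2 fold change of each of the 45 genes (points) with its standard error (bars), libraries labelled Adipo-HuR−/− (n = 5) against libraries labelled control (n = 3), grouped by role; filled points are the 7 genes whose libraries did not overlap between the labels. Pgam2, Eno3 and Pygm lie far to the left of the rest, between -4.31 and -3.06, with wide errors, while the filled points lie between -0.99 and -0.32.

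Libraries stood apart in the contractile genes of skeletal muscle. The summed level of 28 contractile genes was 4152, 2501 and 69.6 CPM in the controls, and 56.7, 47.4, 40.7, 67.5 and 449 CPM in the others. A7, A8 and A31 were thus high, and for 23 of the 28 genes the lowest of these 3 libraries lay above the highest of the other 5. The contractile gene with the highest mean level per length was *Myl1*, a fast myosin light chain (149 TPM), at 227, 236 and 52.4 CPM in the controls, and at 39.0, 27.8, 19.9, 42.1 and 47.9 CPM in the others. *Myh4*, the fast IIb myosin heavy chain, stood at 1048, 457 and 0.0209 CPM in the controls, at 0.113 CPM in A24 and 106 in A31, and had no count in A25, A26 and A29. Of the 28 genes, 3 had no count in A12 and 11, 10, 4 and 6 had none in A24, A25, A26 and A29. Whether the samples held more muscle or more muscle RNA per cell cannot be told apart in bulk tissue. All 28 contractile genes had lower means in the others, 3 of them past the threshold, with a median log2 fold change of -4.54. The defining markers of brown adipocytes were present in every library, with *Ucp1* between 4251 CPM in A25 and 11438 in A8, and 0 of 13 brown adipocyte markers passed the threshold (edgeR, 1 of 13 at an unadjusted p under 0.05; 0 by DESeq2's Wald test). Of the endothelial markers, 6 of 6 had higher means in the others, *Pecam1* without overlap (0.31) and *Tie1* with it (0.62, unadjusted p = 0.0102, edgeR adjusted p = 0.147). Of the erythroid markers, 5 of 5 had lower means, *Alas2* without overlap (-0.72, edgeR adjusted p = 0.160), and of the Schwann cell markers 2 of 4, while *Sox10* was higher without overlap (0.92, edgeR adjusted p = 0.201). Summed levels were 405, 335 and 453 CPM in the controls and 299, 447, 504, 533 and 483 CPM in the others for the endothelial list, 772, 971 and 1082 CPM in the controls and 1155, 517, 365, 855 and 777 CPM in the others for the erythroid list, and 59.9, 38.4 and 50.5 CPM in the controls and 49.1, 44.5, 43.5, 36.2 and 42.0 CPM in the others for the Schwann cell list. Of the macrophage and leukocyte markers, 5 of 6 had lower means (median -0.39), with sums of 36.6, 10.8 and 41.6 CPM in the controls and 30.1, 30.0, 18.1, 20.4 and 23.5 CPM in the others. All 4 sums overlapped, and every gene of these lists had counts in every library. Of 5 hepatocyte markers 2 were tested, and their sum was at most 4.06 CPM.

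Glucose is committed to glycolysis by hexokinase and phosphofructokinase. *Hk2*, the insulin-responsive hexokinase, ranged from 260.0 CPM in A12 to 787 in A7, and *Hk1*, the broadly expressed form, from 72.3 in A8 to 151 in A29. *Hk2* made up 77.8 ± 12.5% of hexokinase TPM in the control libraries (SD, n = 3) and 78.3 ± 5.77% in those labelled *Adipo-HuR-/-* (SD, n = 5), with overlap. *Pfkl*, the liver-type phosphofructokinase, was the leading form at 1376, 947 and 819 CPM in the controls, and at 939, 1248, 1089, 1074 and 953 CPM in the others. The groups overlapped, with the lowest level in the control library A12 (log2 fold change 0.02 ± 0.209 (SE), edgeR adjusted p = 0.974). *Pfkp*, the platelet-type form, stood at 335, 185 and 198 CPM in the controls, and at 191, 174, 217, 200.4 and 225 CPM in the others. Apart from A7 its levels were close to each other in both groups (log2 fold change -0.25 ± 0.210 (SE), edgeR adjusted p = 0.596).

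*Pfkm*, the muscle-type phosphofructokinase (chr15:98092589-98132451, plus strand), stood at 139, 114 and 66.2 CPM in the controls, and at 60.1, 63.7, 68.2, 72.1 and 71.8 CPM in the others. A7 and A8 were high, while A12 lay within the range of the others (log2 fold change -0.66 ± 0.213 (SE), edgeR adjusted p = 0.149, unadjusted p = 0.0105). Its share of phosphofructokinase TPM was 9.002%, 10.8% and 7.12% in the controls, and 5.98%, 5.16%, 5.83%, 6.40% and 6.78% in the others. On this scale the groups did not overlap, and the share of *Pfkl*, from 69.7% in A7 to 80.5% in A25, was higher in the others without overlap. The log2 ratio of *Pfkm* to the other forms differed by -0.60 between the group means (two-sided exact permutation p = 0.0357, the smallest that 56 splits allow, adjusted p = 0.107 over 4 ratios). The kinase and phosphatase enzymes that set fructose 2,6-bisphosphate, the activator of phosphofructokinase, were led by *Pfkfb3*, from 222 CPM in A29 to 545 in A12. *Pfkfb1*, *Pfkfb2* and *Pfkfb4* stayed between 2.88 and 42.9 CPM, and all 4 overlapped between the groups, with log2 fold changes from -0.28 to 0.22.

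The middle of the pathway held the most abundant genes. *Aldoa*, the aldolase of muscle and most other tissues, had the highest mean level per length of the 45 genes at 4935 ± 1699 TPM (SD over 8 libraries), and stood at 6594, 6355 and 3106 CPM in the controls, and at 4566, 4096, 4596, 6224 and 3641 CPM in the others. Its lowest library was the control A12, the next lowest A31, and the groups overlapped (log2 fold change -0.21 ± 0.287 (SE), edgeR adjusted p = 0.760; the direction turned to 0.02 with total counts, to 0.65 without A7, A8 and A31 and to 0.20 with the contractile score as covariate). *Gapdh*, which makes the first NADH of the pathway, ranged from 2928 CPM in A12 to 5734 in A7, and *Gpi1*, glucose phosphate isomerase, from 835 in A12 to 1837 in A29. *Tpi1* and *Pgk1*, triose phosphate isomerase and phosphoglycerate kinase, lay between 404 and 656 CPM. *Aldoc*, the brain-type aldolase, stayed at or under 1.75 CPM in every library, and *Bpgm*, the bisphosphoglycerate mutase of red cells, at or under 25.3 CPM. All of these overlapped between the groups, with log2 fold changes from -0.28 for *Gapdh* to 0.55 for *Aldoc*.

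*Pgam2*, the muscle form of phosphoglycerate mutase (chr11:5801640-5803733, minus strand), stood at 30.0, 27.5 and 0.815 CPM in the controls, and at 0.338, 0.522, 0.370, 0.284 and 3.04 CPM in the others. A7 and A8 were high, A31 was next, and A12 lay below A31 (log2 fold change -4.31 ± 1.021 (SE), edgeR adjusted p = 0.0810, unadjusted p = 0.00164). *Pgam1*, the form of most other tissues, stood at 933, 887 and 769.8 CPM in the controls, and at 1154, 924, 1027, 943 and 841 CPM in the others. Its groups overlapped, and A12 was its lowest library (log2 fold change 0.18 ± 0.173 (SE), edgeR adjusted p = 0.648). The share of *Pgam2* in phosphoglycerate mutase TPM was 6.35%, 6.14% and 0.223% in the controls, and 0.0619%, 0.119%, 0.0762%, 0.0636% and 0.759% in the others. The log2 ratio of *Pgam2* to *Pgam1* was -3.88, -3.93 and -8.70 in the controls, and -10.39, -9.58, -10.14, -10.34 and -7.00 in the others. The difference of group means was -3.99, but A31 lay above A12 and the test did not pass (two-sided exact permutation p = 0.0714, adjusted p = 0.107 over 4 ratios).

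*Eno3*, the muscle enolase (chr11:70657202-70662513, plus strand), stood at 79.0, 80.9 and 4.37 CPM in the controls, and at 5.19, 5.03, 4.03, 4.21 and 14.1 CPM in the others. The order was that of *Pgam2*, with A7 and A8 high, A31 next and A12 among the other libraries (log2 fold change -3.06 ± 0.728 (SE), edgeR adjusted p = 0.0810, unadjusted p = 0.00169). *Eno1*, the enolase of most tissues, stood at 5278, 4271 and 2614 CPM in the controls, and at 3582, 3344, 3232, 3694 and 2609.9 CPM in the others. A12 and A31 were its lowest libraries and the groups overlapped (log2 fold change -0.30 ± 0.248 (SE), edgeR adjusted p = 0.589), and the direction turned to 0.40 without A7, A8 and A31 and to 0.01 with the contractile score as covariate. The share of *Eno3* in enolase TPM was 2.01%, 2.57% and 0.246% in the controls, and 0.193%, 0.260%, 0.207%, 0.202% and 0.792% in the others. The log2 ratio differed by -1.97 between the group means (two-sided exact permutation p = 0.107, adjusted p = 0.107 over 4 ratios). *Pkm*, pyruvate kinase, ranged from 1815 CPM in A31 to 3803 in A7 (log2 fold change -0.47 ± 0.221 (SE), edgeR adjusted p = 0.3202). Of its M1 and M2 transcripts, which carry alternative exons and of which M1 is the form of adult muscle, the M1 share of their summed TPM was estimated at 46.9%, 33.5% and 42.8% in the controls, and 33.5%, 45.1%, 49.2%, 41.7% and 43.8% in the others. The M1 share therefore did not follow *Pgam2* or *Eno3*, since A8 and A24 had the lowest values.

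Across the libraries, A7 and A8 lay above the other 6 for all 4 muscle isozymes and for 15 of the 45 genes, beside 5.31% of all genes tested, a count chosen after the values were seen. The summed level of the 21 glycolysis genes was 28487, 25029.6 and 15275 CPM in the controls, and 19472, 18793, 19024, 23721 and 16882 CPM in the others. The control library A12 had the lowest sum and A7 the highest, with A31 second lowest. A12 was the lowest library for 12 of the 45 genes, beside 16.0% of all genes tested, and A31 for 8, beside 5.29%. A7 was the highest for 22, beside 16.0%. The part of muscle or of other cell types in these levels was not tested.

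Lactate dehydrogenase was led by *Ldha*, the form of muscle and glycolytic cells, at 1594, 1734 and 1151 CPM in the controls, and at 1640.3, 1362, 1554, 1341 and 1156 CPM in the others. The controls spanned the others (log2 fold change -0.08 ± 0.202 (SE), edgeR adjusted p = 0.875; the direction turned to 0.15 with total counts, to 0.36 without A7, A8 and A31 and to 0.05 with the contractile score as covariate). *Ldhb*, the heart-type form, gave between 26.2% of the TPM of both genes in A7 and 36.8% in A31, with overlap.

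**Figure D2:**
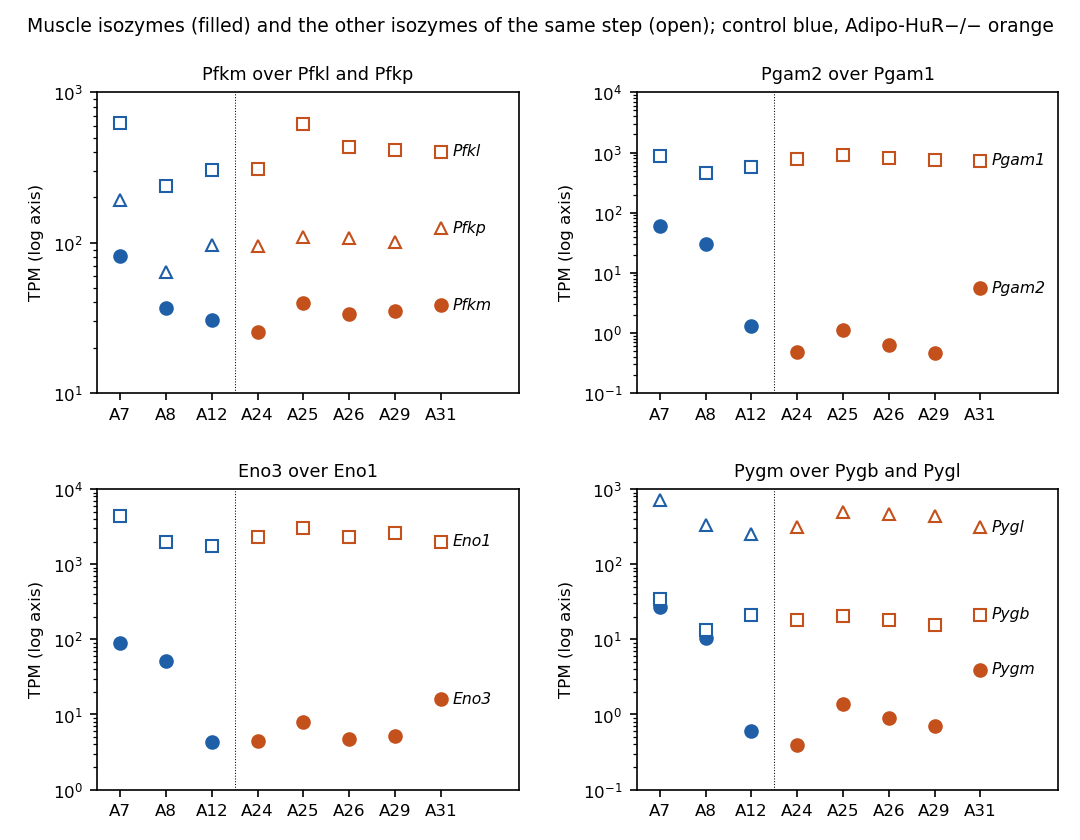
Levels in TPM (log axis) of the 4 muscle isozymes (filled circles) and of the other isozymes of the same step (open symbols) in each of the 8 libraries; blue symbols are libraries labelled control and orange symbols libraries labelled Adipo-HuR−/−. Pgam2, Eno3 and Pygm are high in A7 and A8, intermediate in A31 and low in the other 5 libraries, whereas the other isozymes show no such step, and Pfkm varies between 25.6 and 81.0 TPM.

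Glycogen phosphorylase releases glucose phosphate from glycogen. *Pygl*, the liver form, was the leading phosphorylase of the tissue, at 1204, 998 and 529 CPM in the controls, and at 724, 781, 932, 870.0 and 559.6 CPM in the others. A12 and A31 were again the lowest libraries (log2 fold change -0.24 ± 0.270 (SE), edgeR adjusted p = 0.709), and the direction turned to 0.64 without A7, A8 and A31 and to 0.14 with the contractile score as covariate. It gave 92.4 ± 0.736% of phosphorylase TPM in the control libraries (SD, n = 3) and 95.1 ± 1.63% in those labelled *Adipo-HuR-/-* (SD, n = 5). *Pygb*, the brain form, stood at 80.7, 46.4 and 61.6 CPM in the controls, and at 52.2, 44.6, 47.4, 38.9 and 48.5 CPM in the others. The control library A8 lay within the other group (log2 fold change -0.44 ± 0.185 (SE), edgeR adjusted p = 0.260, unadjusted p = 0.0377). *Pygm*, the muscle form (chr19:6384399-6398459, plus strand), stood at 92.2, 59.7 and 1.80 CPM in the controls, and at 1.35, 3.70, 2.79, 1.93 and 13.9 CPM in the others. As for *Pgam2*, A7 and A8 were high, A31 came next and A12 lay among the low libraries (log2 fold change -3.40 ± 0.976 (SE), edgeR adjusted p = 0.119, unadjusted p = 0.00560). Its share of phosphorylase TPM was 3.51%, 2.99% and 0.221% in the controls, and 0.118%, 0.261%, 0.181%, 0.156% and 1.18% in the others. The log2 ratio of *Pygm* to the other forms differed by -2.34 between the group means (two-sided exact permutation p = 0.107, adjusted p = 0.107 over 4 ratios).

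Without A7, A8 and A31, that is with A12 against A24, A25, A26 and A29, the log2 fold change was -1.12 (SE 0.617) for *Pgam2*, 0.07 (SE 0.340) for *Eno3*, 0.44 (SE 0.556) for *Pygm* and 0.00 (SE 0.245) for *Pfkm*. The lone control library was taken to vary as the other group did. *Eno3* and *Pygm* thus turned in direction without these libraries, and *Pgam2* and *Pfkm* came closer to 0. With the contractile score as covariate, the log2 fold change was -1.13 (SE 0.287, edgeR adjusted p = 0.239) for *Pgam2*, -0.34 (SE 0.303, edgeR adjusted p = 0.688) for *Eno3*, 0.14 (SE 0.395, edgeR adjusted p = 0.920) for *Pygm* and -0.19 (SE 0.213, edgeR adjusted p = 0.757) for *Pfkm*. The differences of the log2 isozyme ratios kept their direction without A7, A8 and A31 but were smaller, at -0.31 for *Pfkm*, -1.42 for *Pgam2*, -0.21 for *Eno3* and -0.39 for *Pygm*, and were not tested. Without A12, all 4 genes passed the threshold, with edgeR adjusted p between 0.00724 and 0.0327. This fit keeps only A7 and A8 as controls, which lay above all other libraries for all 4 genes, so that it is no separate support.

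Phosphorylase kinase is built from α, β and γ subunits with calmodulin, of which the γ subunit is catalytic and the α and β subunits hold it in check. *Phkb*, the only β subunit gene (chr8:85840959-86061376, plus strand), stood at 91.1, 68.0 and 69.9 CPM in the controls, and at 39.6, 42.5, 47.4, 48.7 and 42.9 CPM in the others. All 3 control libraries, A12 included, lay above all 5 others. The level fell from 76.4 ± 12.8 CPM (SD, n = 3) to 44.2 ± 3.75 (SD, n = 5), 1.73-fold (log2 fold change -0.79 ± 0.148 (SE), edgeR adjusted p = 0.0474). *Phka1*, the muscle form of the α subunit (chrX:102513975-102644246, minus strand), stood at 30.5, 21.6 and 20.6 CPM in the controls, and at 10.5, 9.54, 12.1, 14.1 and 14.6 CPM in the others. Here too the groups did not overlap and A12 stood with the other controls, but the adjusted p missed the threshold (log2 fold change -0.99 ± 0.192 (SE), edgeR adjusted p = 0.0516). *Phka2*, the liver form of the α subunit (chrX:160502166-160598878, plus strand), stood at 80.4, 45.8 and 56.4 CPM in the controls, and at 32.7, 43.2, 39.6, 43.5 and 35.6 CPM in the others. Its groups did not overlap either, with A8 closest to the other group (log2 fold change -0.65 ± 0.191 (SE), edgeR adjusted p = 0.126, unadjusted p = 0.00673).

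The catalytic γ subunits did not show this order. *Phkg2*, the liver form, ranged from 11.7 CPM in A7 to 17.2 in A8, the extremes both being controls (log2 fold change 0.04 ± 0.159 (SE), edgeR adjusted p = 0.927). *Phkg1*, the muscle form, stood at 7.16, 7.39 and 1.504 CPM in the controls, and at 1.75, 2.61, 5.11, 2.06 and 2.80 CPM in the others. A7 and A8 were high and A12 was the lowest of all 8 libraries (log2 fold change -0.88 ± 0.488 (SE), edgeR adjusted p = 0.386). Of the 5 subunit genes, 3 were therefore lower without overlap, beside 6.09% of all genes tested, and 2 overlapped. The share of *Phka1* in α subunit TPM was 18.6%, 23.2% and 19.3% in the controls, and 17.6%, 12.3%, 16.2%, 16.7% and 20.8% in the others, a share that overlapped between the groups.

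When the contractile score was added as covariate, the log2 fold change was -0.71 (SE 0.202, edgeR adjusted p = 0.261) for *Phkb*, -0.75 (SE 0.221, edgeR adjusted p = 0.273) for *Phka1* and -0.59 (SE 0.261, edgeR adjusted p = 0.416) for *Phka2*. Without A7, A8 and A31 it was -0.65 (SE 0.239, edgeR adjusted p = 0.334) for *Phkb*, -0.83 (SE 0.277, edgeR adjusted p = 0.319) for *Phka1* and -0.51 (SE 0.253, edgeR adjusted p = 0.421) for *Phka2*. The direction of all 3 was kept in both, and the call of *Phkb* was lost in both. With total counts in place of TMM *Phkb* was at -0.58 (SE 0.201, edgeR adjusted p = 0.149) and was not called. Leaving out A7, A12, A24, A25, A26, A29 or A31 also ended its call and leaving out A8 kept it, with log2 fold changes from -0.86 to -0.64 and edgeR adjusted p of 0.147, 0.0418 and 0.0517 without each control and 0.0623, 0.1204, 0.0905, 0.0998 and 0.0979 without each of the others.

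Estimated transcripts gave a less even picture. The full-length *Phkb* transcript of 32 exons stood at 61.5, 26.5 and 45.8 CPM in the controls, and at 13.7, 29.5, 37.0, 23.96 and 22.1 CPM in the others. The control A8 lay among the other group for this transcript, and a shorter processed transcript of 6 exons took 37.8 CPM in A8 and between 7.92 and 23.9 elsewhere. For *Phka1*, the most abundant transcript of 33 exons did not overlap between the groups, at 22.6, 14.0 and 20.4 CPM in the controls, and at 3.80, 0.518, 7.96, 13.7 and 7.86 CPM in the others. The split of reads between transcripts of 1 gene is an estimate, so that these values are less certain than the gene totals.

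Glycogen is built from UDP-glucose. *Ugp2*, which makes UDP-glucose and had the highest level per length of the glycogen synthesis list (169 ± 45.04 TPM, SD over 8 libraries), lies at chr11:21321138-21371201, minus strand. It stood at 379.7, 316 and 362 CPM in the controls, and at 239, 197, 206, 252 and 218 CPM in the others. The groups did not overlap, and A12 was as high as A7 and A8 (log2 fold change -0.67 ± 0.151 (SE), edgeR adjusted p = 0.0750, unadjusted p = 0.00122). The longer of its 2 main transcripts stood at 249.7, 187 and 241 CPM in the controls, and at 105, 104, 104, 147 and 120.5 CPM in the others, without overlap. The shorter one was more alike, between 90.3 and 127 CPM, and overlapped. Without A7, A8 and A31 the log2 fold change of *Ugp2* was -0.70 (SE 0.261, edgeR adjusted p = 0.338).

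*Gys1*, the glycogen synthase of muscle and most tissues, stood at 246, 209 and 204 CPM in the controls, and at 165, 173, 199, 164 and 179 CPM in the others. The groups did not overlap, but A12 and A26 were close and the unadjusted p was 0.0505 (log2 fold change -0.32 ± 0.144 (SE), edgeR adjusted p = 0.295). *Gys2*, the liver synthase, was present at a like level per length, so that *Gys1* gave between 40.9% of synthase TPM in A8 and 58.6% in A25, with overlap. *Gyg*, the glycogenin that primes each particle, *Gbe1*, the branching enzyme, and *Ppp1r3c*, which brings protein phosphatase 1 to glycogen, overlapped between the groups. All 6 genes of the list had lower means in the others, with log2 fold changes from -0.67 to -0.12 and a median of -0.32, beside 0.00 over all genes tested. The summed level of these 6 genes was 1391, 1232 and 1214 CPM in the controls, and 1084, 946, 1097, 975 and 915 CPM in the others, without overlap.

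*Fbp2*, the muscle fructose bisphosphatase, stood at 33.2, 60.4 and 33.2 CPM in the controls, and at 50.5, 31.2, 51.9, 35.6 and 38.2 CPM in the others. It did not follow the other muscle forms, since A7 and A12 were alike and A8, A24 and A26 were high (log2 fold change -0.03 ± 0.248 (SE), edgeR adjusted p = 0.968; the direction turned to 0.24 with total counts, to 0.35 without A7, A8 and A31 and to 0.11 with the contractile score as covariate).

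**Figure D3:**
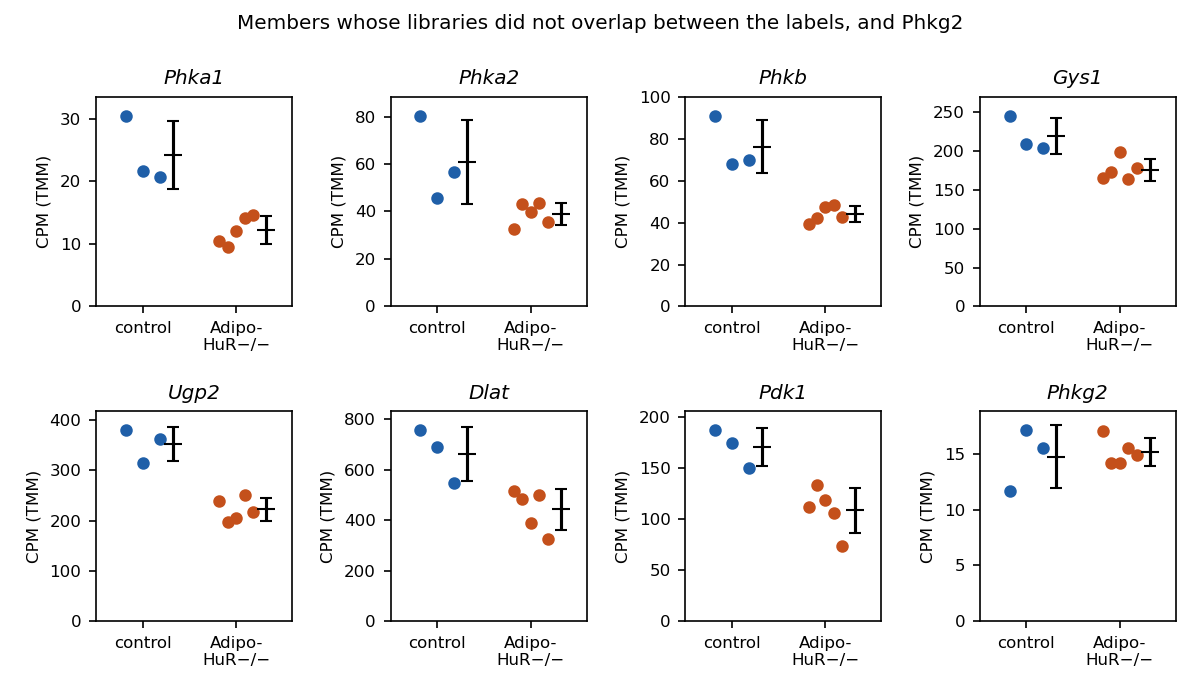
TMM-normalized CPM of the 7 genes whose libraries did not overlap between the labels, and of Phkg2 for comparison, in libraries labelled control (blue, n = 3) and labelled Adipo-HuR−/− (orange, n = 5); points are libraries and black marks are the group mean with its SD. Phkb falls from a mean of 76.4 to 44.2 CPM, while Phkg2 overlaps at 14.8 and 15.2 CPM.

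The pyruvate dehydrogenase complex passes the carbon of pyruvate to the citric acid cycle, and its kinases switch it off. *Pdha1*, the catalytic E1α subunit, had the highest mean level per length of this list and stood at 2114, 2899 and 2097 CPM in the controls, and at 2106, 2211, 1906, 2155 and 1589 CPM in the others. The groups overlapped (log2 fold change -0.25 ± 0.1999 (SE), edgeR adjusted p = 0.575; the direction turned to 0.01 with total counts), as did those of *Pdhb*, the E1β subunit, from 732 to 1214 CPM. *Dlat*, the E2 core (chr9:50634633-50659780, minus strand), stood at 756, 689 and 546 CPM in the controls, and at 515, 483, 389, 498 and 326 CPM in the others. It did not overlap between the groups, although A12 was close to A24 (log2 fold change -0.59 ± 0.199 (SE), edgeR adjusted p = 0.168, unadjusted p = 0.0142), and without A7, A8 and A31 the log2 fold change was -0.21 (SE 0.279, edgeR adjusted p = 0.757). With the contractile score as covariate it was -0.55 (SE 0.297, edgeR adjusted p = 0.495). *Pdk1*, a kinase of the complex (chr2:71873224-71903858, plus strand), stood at 187, 175 and 150.03 CPM in the controls, and at 111, 133, 119, 106 and 73.3 CPM in the others. All control libraries were above all others, with A31 lowest (log2 fold change -0.65 ± 0.193 (SE), edgeR adjusted p = 0.125, unadjusted p = 0.00655), and without A7, A8 and A31 the log2 fold change was -0.36 (SE 0.252, edgeR adjusted p = 0.549). With the contractile score as covariate it was -0.73 (SE 0.2795, edgeR adjusted p = 0.374). The full-length *Pdk1* transcript stood at 161, 172 and 141 CPM in the controls, and at 86.1, 89.4, 83.2, 83.9 and 59.8 CPM in the others. It was further apart than the gene total, as a processed transcript of 9 exons went the other way, at 11.9 ± 11.2 CPM in the control libraries (SD, n = 3) and 26.5 ± 11.0 in the others (SD, n = 5), with overlap. *Pdk2* stood between 289 and 385 CPM, *Pdk4*, which rises in fasting, between 1056 and 3744, and *Pdk3* at or under 1.33, each with overlap.

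Of 57 further genes of the same pathways, 50 were tested, 23 lower and 27 higher, with a median log2 fold change of 0.02. With 69 genes lower and 36 higher past the threshold in all, *Slc16a7*, the monocarboxylate transporter that takes up lactate and pyruvate, was the 1 gene past the threshold, at 5.42, 5.57 and 7.15 CPM in the controls, and at 2.65, 2.42, 2.02, 2.22 and 2.29 CPM in the others. It fell 2.62-fold, with every control library above every other library (log2 fold change -1.39 ± 0.198 (SE), edgeR adjusted p = 0.0220). Its call was lost without A7, A25, A26, A29 or A31, where the log2 fold change was -1.46, -1.41, -1.34, -1.38 and -1.39. It was also lost with total counts (-1.16), with the contractile score as covariate (-1.53), without A24 and A25 (-1.48) and without A7, A8 and A31 (-1.63). Of the 50 genes, 6 were lower at an unadjusted p under 0.05, *Slc16a7* included, and 3 were higher, beside 9.41% and 7.64% of all genes tested. All 10 other glycolysis enzymes tested had higher means (median log2 fold change 0.43), 1 of them at an unadjusted p under 0.05. Lower and higher genes numbered 10 and 6 for other glycogen enzymes and 3 and 3 for gluconeogenesis. They numbered 6 and 4 for pyruvate and lactate transport and pyruvate dehydrogenase, and 4 and 4 for the pentose phosphate pathway. Among the other glycogen enzymes, *Pgm2*, a phosphoglucomutase, stood at 314 ± 13.9 CPM (SD, n = 3) against 240.4 ± 12.6 (SD, n = 5), and *Epm2a*, the glycogen phosphatase laforin, at 10.1 ± 0.414 CPM (SD, n = 3) against 6.52 ± 1.42 (SD, n = 5). Neither overlapped between the groups, with log2 fold changes of -0.38 (SE 0.135) and -0.63 (SE 0.201), and edgeR adjusted p of 0.182 and 0.1499. *Ppp1r3a*, the muscle glycogen-targeting subunit of protein phosphatase 1, had 4.73 CPM in A7, 3.87 in A8 and 0.576 in A31, and no count in the other 5 libraries (unadjusted p = 0.0143, edgeR adjusted p = 0.169). It thus had the order of *Pgam2*, *Eno3* and *Pygm*, its log2 fold change of -4.30 turned to 1.81 with the contractile score as covariate, and it did not pass the filter without A31.

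In the pentose phosphate pathway, which draws on the first intermediates of glycolysis, *G6pdx*, the entry enzyme, stood at 421 ± 145 CPM (SD, n = 3) against 245 ± 52.1 (SD, n = 5) with overlap (log2 fold change -0.78 ± 0.245 (SE), edgeR adjusted p = 0.141), and *Rpe* at 58.7 ± 5.23 CPM (SD, n = 3) against 41.6 ± 3.87 (SD, n = 5) without it (log2 fold change -0.50 ± 0.137 (SE), edgeR adjusted p = 0.108). The 3 higher genes were *Pgp*, a phosphatase that clears phosphoglycolate, *Gaa*, the lysosomal glucosidase of glycogen, and *Fbp1*, the liver fructose bisphosphatase, with log2 fold changes of 0.82 (SE 0.299), 0.41 (SE 0.173) and 1.12 (SE 0.462). Their groups overlapped and edgeR adjusted p lay between 0.196 and 0.258. *Gckr*, *Hkdc1*, *Pgk2*, *Pklr*, *Ldhc*, *G6pc* and *G6pc2* were not tested, as their counts were too low.

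How far reads could be shared with other genes was read from the annotated transcripts. None of the 31-base words of *Pfkm*, *Pgam2*, *Eno3*, *Phka1*, *Phka2*, *Phkb*, *Ugp2* and *Dlat* occurred in another listed gene, and 1.18% of those of *Pygm* occurred in *Pygb*. In contrast, 54.7% of the words of *Pgk1*, 42.1% of *Pgam1*, 27.2% of *Gapdh* and 27.0% of *Eno1* occurred elsewhere, mostly in processed pseudogenes or, for *Eno1*, its retrogene *Eno1b*, so that these totals are uncertain to the extent that reads were divided. Over 10% of the words were shared for 11 of the 45 genes, among them *Pdhb* (41.9%) and *Ldhb* (33.0%), with the same limit. The strand setting of the counts is not stated, and exons of 11 of the 45 genes overlap another gene. The overlap was 21.9% of exon bases for *Phkg2* with *Ccdc189*, 16.15% for *Pdha1* with *Map3k15* and 9.68% for *Phkg1* with *Sumf2*. It was 6.47% for *Gys1* with *Ruvbl2* and 0.61% for *Pfkm* with *Senp1*. All of these lie on the opposite strand, where reads of both genes cannot be told apart if strand was not used. *Pfkfb2* shared 17.4% of its exon bases with *Gm29427* on the same strand. The count of *Sumf2* was 225% of that of *Phkg1*, that of *Ccdc189* 29.9% of that of *Phkg2* and that of *Map3k15* 0.154% of that of *Pdha1*.

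*Pgam2*, *Eno3* and *Pygm* followed each other across the libraries, and their promoters are shown for that reason. RefSeq promoters on GRCm38.p6, from 250 bases before to 50 bases after the start of each gene in RefSeq, were matched by symbol for 44 of the 45 genes. The *Pgam2* promoter lies at chr11:5803747-5804046, minus strand, that of *Eno3* at chr11:70656926-70657225, plus strand and that of *Pygm* at chr19:6384158-6384457, plus strand. Starts can differ from the GENCODE gene positions given above, and the *Pgam2* window lies wholly before its GENCODE start. Capitals mark each CAGCTG, an E-box that reads the same on both strands, and each match to the MEF2 consensus on either strand, and the motifs do not overlap in these sequences.
Pgam2: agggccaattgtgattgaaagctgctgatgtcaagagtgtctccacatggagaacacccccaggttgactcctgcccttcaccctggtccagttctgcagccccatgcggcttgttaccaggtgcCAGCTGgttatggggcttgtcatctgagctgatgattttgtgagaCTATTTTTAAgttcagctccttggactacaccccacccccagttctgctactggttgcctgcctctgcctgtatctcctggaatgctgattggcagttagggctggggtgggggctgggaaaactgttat
Eno3: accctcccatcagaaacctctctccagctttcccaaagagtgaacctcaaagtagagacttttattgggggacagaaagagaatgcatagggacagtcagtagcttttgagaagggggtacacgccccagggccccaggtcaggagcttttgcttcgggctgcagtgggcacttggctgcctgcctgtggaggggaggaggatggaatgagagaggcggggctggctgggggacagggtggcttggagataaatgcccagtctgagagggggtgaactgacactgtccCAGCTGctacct
Pygm: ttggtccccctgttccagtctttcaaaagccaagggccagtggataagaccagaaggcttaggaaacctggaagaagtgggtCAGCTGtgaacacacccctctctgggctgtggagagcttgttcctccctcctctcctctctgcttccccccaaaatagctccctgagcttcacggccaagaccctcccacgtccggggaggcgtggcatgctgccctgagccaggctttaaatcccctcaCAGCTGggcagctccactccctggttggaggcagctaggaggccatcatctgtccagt
CAGCTG occurred 1 time in the *Pgam2* promoter, 1 time in that of *Eno3* and 2 times in that of *Pygm*, and in 16.3% of all 32851 promoters of this length. It occurred in 15 of the 64 promoters of the 44 genes (23.4%). The MEF2 consensus was found in the *Pgam2* promoter, in 2 of the 64 promoters of the 44 genes (3.12%) and in 3.19% of all promoters. It was absent from those of *Eno3* and *Pygm*, and no promoter of *Pfkm* held either motif. These matches describe the letters of the windows only.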

How the data were processed

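BAT RNA from 8 mice was sequenced as poly(A) libraries, and the groups follow the labels, 3 control and 5 *Adipo-HuR-/-*. The authors deposited estimated counts per transcript (expected counts, not normalized) for 105129 transcripts on GRCm38. The study's methods name CLC Genomics Workbench, and the counting program and its use of strand are not given in the sources used here. Reads that fitted several transcripts were already divided, so that shares between transcripts or copies are uncertain.

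Counts were summed per gene and rounded. Genes were kept by filterByExpr, normalized by TMM and tested by quasi-likelihood in edgeR 4.0.16 (R 4.3.3), with Benjamini-Hochberg adjustment over all genes kept. A gene was called at an adjusted p of at most 0.05 and a fold change of at least 1.5, and its SE is the size of the log2 fold change over the root of F. DESeq2 1.42.0 served as an alternative. TPM used transcript lengths of GENCODE M21, which holds 103723 of the transcripts. Isozyme ratios were log2 ratios of TPM after adding 0.1, compared by two-sided exact permutation over 56 splits, and adjusted over the 4 ratios. The contractile score is the mean log2 CPM of 28 genes with a prior count of 2. Tables and figures used Python 3.11.15 with numpy 2.4.6, pandas 2.3.3 and matplotlib 3.10.9. In simulated counts for 14573 genes in the same groups, with 194 genes changed 4-fold, the quasi-likelihood test called 148 of these and 6 others, the likelihood ratio test 168 and 22, and DESeq2's Wald test 167 and 35.

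The members and lists were chosen with earlier results of these data known. Named with full values were members past the threshold or with an unadjusted p under 0.05, the muscle isozymes with the other forms of their step, and the most abundant member of each list; of the pathway lists, genes past the threshold or with an unadjusted p under 0.05. *Phkg1*, *Gys1* and the transcripts were added after their values were seen, and 1 gene of the pathway lists was left out of all lists. Alternatives were other normalizations, tests, filters and thresholds, the most abundant transcript, the contractile score as a covariate, and libraries left out. Totals per library are given with the groups; they bound counting error only, as amplified reads are not independent molecules.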

Additional observations from a re-analysis of the deposited data

Results flagged for a closer look

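Dixon's ratio, the gap to the nearest library over the range, was computed among the 5 libraries labelled *Adipo-HuR-/-* for 49 quantities and flagged above 0.71, which happens in about 1 in 20 groups by chance. The 8 flags all named A31 as the high library. The ratio was 0.914 for *Pgam2* CPM, 0.885 for *Eno3* CPM, 0.813 for *Pygm* CPM, 1.00 for *Ppp1r3a* CPM, 0.763 for the log2 ratio of *Pgam2* to *Pgam1*, 0.793 for the log2 ratio of *Eno3* to *Eno1*, 0.934 for the summed CPM of the contractile genes and 0.960 for the contractile score. *Ppp1r3a* had no count in the other 4 libraries, so that any count in A31 gives this ratio and the flag carries no information. With 3 libraries the control group was not tested.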

How the results depend on the processing

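Against 105 genes and 1 of the 45 past the threshold, DESeq2's Wald test called 818 and 8, the likelihood ratio test 655 and 6, a limit of 0.1 for the adjusted p 469 and 5, total counts 121 and 0, no filter 137 and 2, the strict filter 124 and 2, the most abundant transcript 16 and 0, the contractile covariate 15 and 0, leaving out A24 and A25 5 and 0, and leaving out A7, A8 and A31 4 and 0. Leaving out 1 library gave 10 (A26) to 190 (A12) genes and 0 to 5 of the 45. Without A12, with A7 and A8 as the only controls, *Eno3*, *Pfkm*, *Pgam2*, *Phka1* and *Pygm* were called and *Phkb* was not. The turns and ranges below cover only *Elavl1* and the genes named with full values. Log2 fold changes turned in direction to 0.02 for *Aldoa*, 0.15 for *Ldha*, 0.24 for *Fbp2* and 0.01 for *Pdha1* with total counts, to 0.20 for *Aldoa*, 0.01 for *Eno1*, 0.05 for *Ldha*, 0.14 for *Pygl*, 0.14 for *Pygm*, 0.11 for *Fbp2* and 1.81 for *Ppp1r3a* with the covariate, to -0.02 for *Pfkl* without A24 and A25, and to 0.65 for *Aldoa*, 0.40 for *Eno1*, 0.07 for *Eno3*, 0.36 for *Ldha*, 0.64 for *Pygl*, 0.44 for *Pygm* and 0.35 for *Fbp2* without A7, A8 and A31. Leaving out each library gave these ranges: -0.13 to 0.26 for *Pfkl*, -0.91 to -0.42 for *Pfkm*, -0.40 to 0.07 for *Pfkp*, -0.49 to -0.03 for *Aldoa*, 0.10 to 0.24 for *Pgam1*, -5.72 to -3.87 for *Pgam2*, -0.54 to -0.07 for *Eno1*, -3.61 to -2.66 for *Eno3*, -0.24 to 0.04 for *Ldha*, -0.61 to -0.22 for *Pygb*, -0.51 to 0.02 for *Pygl*, -4.39 to -2.66 for *Pygm*, -1.09 to -0.79 for *Phka1*, -0.81 to -0.40 for *Phka2*, -0.86 to -0.64 for *Phkb*, -0.73 to -0.61 for *Ugp2*, -0.17 to 0.33 for *Fbp2*, -0.33 to -0.07 for *Pdha1*, -0.71 to -0.48 for *Dlat*, -0.74 to -0.55 for *Pdk1*, 0.11 to 0.24 for *Elavl1*, 0.63 to 1.00 for *Pgp*, 0.31 to 0.52 for *Gaa*, -0.42 to -0.35 for *Pgm2*, -4.86 to -3.75 for *Ppp1r3a*, -0.74 to -0.53 for *Epm2a*, 0.79 to 1.40 for *Fbp1*, -1.46 to -1.25 for *Slc16a7*, -1.01 to -0.51 for *G6pdx* and -0.57 to -0.43 for *Rpe*. *Ppp1r3a* was filtered out without A31, so that its range covers the other 7 libraries. Leaving out 1 library moved the differences of the log2 isozyme ratios over -0.78 to -0.45 for *Pfkm*, -5.59 to -3.18 for *Pgam2*, -3.04 to -1.35 for *Eno3* and -3.57 to -1.66 for *Pygm*. By adjusted p none passed with other offsets or with CPM, where the unadjusted two-sided exact permutation p of the *Pfkm* ratio stayed at 0.0357. With libraries left out the smallest possible p lay above 0.05 and no ratio could pass. Groups of 3 and 5 libraries, whose labels *Elavl1* does not check, and 1 control without high contractile genes limit every comparison.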
